A study of Mus musculus with 6 samples.

Results

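Forkhead transcription factors are a family of DNA-binding proteins that share a winged-helix domain, and the letter after Fox gives the subfamily. They were taken from the deposited gene table as every row whose symbol is Fox, a letter from a to s and a digit, which gave 34 of 17606 genes. A fold change is given only for the 18 members with 10 or more counts in at least 3 libraries, and the other 16 are described by their counts. RNA was measured in corneal keratocytes, the cells of the corneal stroma, sorted by flow cytometry from Prrx1-creERT;Ptch1 mice and from mice labelled ctrl, with 3 libraries in each group. All mice were 10 weeks old and received 3 doses of tamoxifen, and both groups carry the label of 1 month of treatment. According to the study's methods the ablated mice carry Ptch1 f/f, while the Cre status of the controls, the number of mice per library and the sorting gate are not given in the sources used here. Prrx1-CreERT also recombines in corneal endothelial cells per the study, so the loss of Ptch1, the receptor that holds the Hedgehog pathway off, is not limited to keratocytes.

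FoxC, FoxD, FoxF and FoxL factors pattern embryonic mesenchyme, and several of them respond to Hedgehog signaling there. Foxc1 and Foxc2 shape the front of the eye, and loss of either disturbs the cornea, the iris and the drainage angle. FoxO factors are held in the cytoplasm by the kinase Akt and switch on genes of cell cycle arrest and stress resistance when it is low. FoxP, FoxN, FoxK and FoxJ members are more widely expressed, Foxm1 drives genes of mitosis, and Foxj1 drives the genes of motile cilia.

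Library totals ran from 20258439 to 24788063 expected counts, so the upper limit set by a count of 0, which is 3 counts, was 0.121 to 0.158 CPM (counts scaled to 1000000 per library). These limits cover counting error only. The cells carried the keratocyte genes Kera, Lum and Dcn in every library. The summed level of 10 keratocyte markers was 140057 to 160920 CPM in the control and 83041 to 94709 CPM in the ablated libraries. By adjusted p 7 of the 9 tested markers fell, against 3.8% of all tested genes. The pathway readout separated the groups, since Gli1, a direct Hedgehog target, stood at 1, 20 and 36 counts in control replicates 1 to 3 against 3022, 3042 and 3098 counts after ablation (log2 fold change 7.15, SE 0.54, adjusted p = 5.35e-06, edgeR). Ptch1 itself had 172, 104 and 369 counts against 4348, 5194 and 6230 (log2 fold change 4.47, SE 0.35), but a total over the gene cannot show which exons were lost and so does not check the deletion. Control replicate 1 and ablated replicate 2 lay apart from the other libraries on the second principal component, which held 22.2% of the variance, and results that rest on either are given without it where they change.

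Among the 18 members with a fold, Foxc2 was the only gene that rose past an adjusted p of 0.05 and a 2-fold change with edgeR. The study's methods name this rule, and its text also uses an unadjusted p. That is 1 of 18 members (5.56%) against 3.36% of all 13888 tested genes called higher, and by adjusted p alone the count was also 1, against 4.68% of all genes. No member was called lower with edgeR by either rule (2.13% and 3.8% of all genes), none was lower at an unadjusted p under 0.05, and DESeq2 and both limma fits called none lower. 4 members had an unadjusted p under 0.05, namely Foxc1, Foxc2, Foxd2 and Foxs1, against 20.6% of all genes in either direction. All 4 were more than 2-fold higher, and 5.26% of all genes were higher by that rule. By sign 14 members were higher and 4 lower (11 to 16 higher under the alternatives), and the median over the 18 was a log2 fold change of 0.31, against 0.0046 over all tested genes. For 7 members every ablated library lay above every control library in CPM (38.9%, against 14.1% of all genes), and for none did every ablated library lie below (13.3% of all genes). Foxc2 and Foxd2 reached 10 counts only in ablated libraries, and Foxm1 and Foxj1 in just 1 control library each, so these 4 were given a fold only because they were high after ablation. Among the other 14 members the non-overlapping genes were Foxc1, Foxp4 and Foxs1 (3, or 21.4%) and the median log2 fold change was 0.19. The counts and medians over members are descriptions only.

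**Figure D1:**
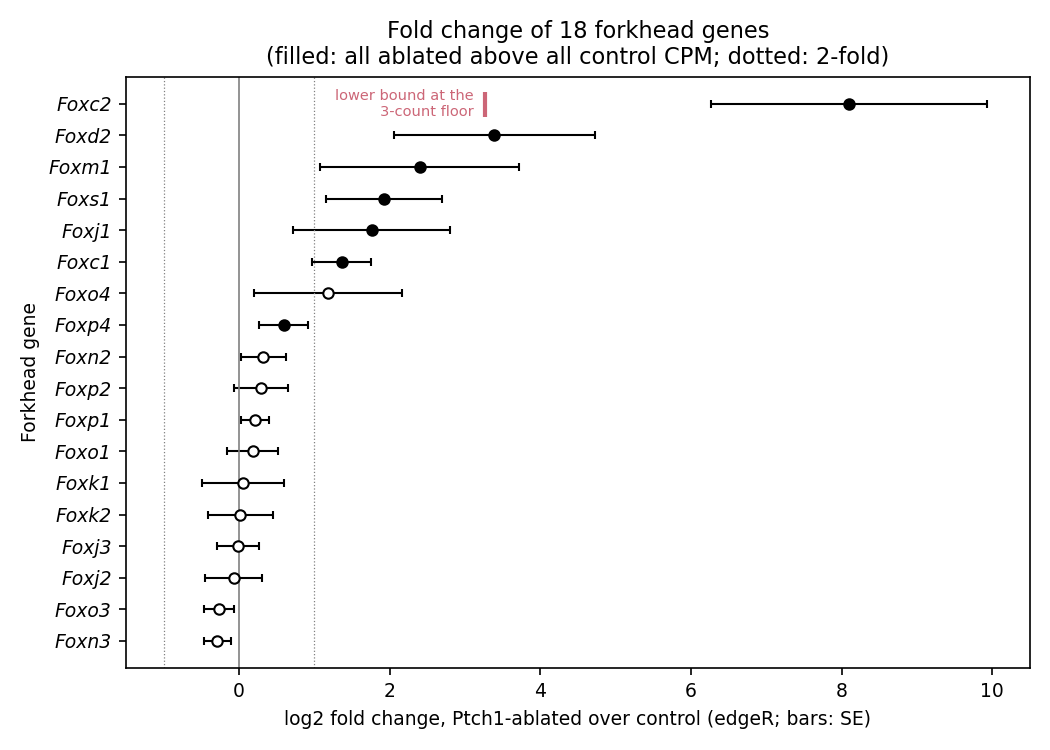
Log2 fold change of the 18 forkhead genes (points, edgeR) with standard errors (bars), 3 ablated against 3 control libraries; filled points mark the 7 genes whose groups do not overlap and dotted lines mark 2-fold. Foxc2 stands apart at 8.10, with a lower bound of 3.26 marked because its controls are all at 0, and 10 genes lie within 1.5-fold of no difference. That bound takes the ablated mean as measured and allows for counting error in the controls only.

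The promoters of Foxc1 and Foxd2 are shown as examples picked by hand. All ablated libraries lay above all control libraries for both genes, as they also did for Foxc2, Foxj1, Foxm1, Foxp4 and Foxs1. RefSeq holds a start for each of the 2 genes shown (build GRCm38.p6, which differs from the mm9 build named in the submitters' processing notes). Each run is 250 bases before to 50 after the start, 5′ to 3′ on the gene's strand, with CpG pairs in capitals. The Foxc1 window is chr13:31806396-31806695 on the + strand and the Foxd2 window is chr4:114908849-114909148 on the − strand.
Foxc1: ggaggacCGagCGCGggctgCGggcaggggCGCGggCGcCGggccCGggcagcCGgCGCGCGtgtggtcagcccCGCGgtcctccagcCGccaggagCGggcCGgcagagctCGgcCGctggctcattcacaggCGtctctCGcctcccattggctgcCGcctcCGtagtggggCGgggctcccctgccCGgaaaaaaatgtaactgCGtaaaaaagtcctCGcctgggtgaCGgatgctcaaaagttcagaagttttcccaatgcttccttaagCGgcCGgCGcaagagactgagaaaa
Foxd2: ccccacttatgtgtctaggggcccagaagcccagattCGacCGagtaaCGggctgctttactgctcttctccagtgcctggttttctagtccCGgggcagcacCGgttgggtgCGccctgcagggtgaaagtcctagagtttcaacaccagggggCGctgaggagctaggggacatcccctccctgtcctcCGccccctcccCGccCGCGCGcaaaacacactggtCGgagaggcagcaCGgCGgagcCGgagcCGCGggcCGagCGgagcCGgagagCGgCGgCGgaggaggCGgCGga

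The Foxc1 window holds 32 CpG pairs and the Foxd2 window 26, against a median of 7 over all 32851 promoters of the same length, and 90.5% and 83.1% of promoters respectively hold fewer. Both windows were searched on both strands for the Gli motif GACCACCCA and the forkhead motif GTAAACA, which do not overlap each other. No match was found in any of the 26 promoters of the 23 members with an entry, which do not include Foxc2, while 0.253% of all promoters hold the first and 3.65% the second. A missing match says only that these letters are not in these windows.

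Foxc2 was at 0 counts in all 3 control libraries and at 33, 55 and 20 counts in ablated replicates 1, 2 and 3. The ablated libraries stood at 1.29, 2.29 and 0.72 TPM (a transcript level per length, scaled to the same sum in every library), so the groups did not overlap and even the ablated level was low. Foxc2 guides the growth of blood and lymphatic vessels and of the anterior eye. Its mean ablated level of 1.52 ± 0.772 CPM (SD, n = 3) was 9.61-fold the largest 3-count limit of a control library. This is a lower bound for the controls only, since it takes the ablated mean as measured, and the lowest ablated library stood at 0.805 CPM. The fitted log2 fold change of 8.10 (SE 1.83, adjusted p = 0.0221) is no bound. The call was lost when any library other than control replicate 1 was left out, with adjusted p of 0.079 and 0.0668 without control replicates 2 and 3, and of 0.0843, 0.0927 and 0.0641 without ablated replicates 1, 2 and 3 (0.00192 to 0.101 over all alternatives).

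Foxc1, which with Foxc2 specifies the periocular mesenchyme that gives rise to the corneal stroma, was detected in every library. It had 178, 135 and 133 counts in control and 313, 675 and 303 in ablated libraries, or 4.27, 3.73 and 3.17 TPM against 8.1, 18.6 and 7.19 TPM. All ablated libraries were higher than all controls, and ablated replicate 2 was far above the other two. The log2 fold change was 1.36 (SE 0.39, a 2.57-fold difference) with an adjusted p of 0.0541, just outside the threshold. It fell inside with DESeq2 (adjusted p = 0.0164), with library totals as the only scaling (0.031) and with no filter on low counts (0.0449), and the log2 fold change was 0.87 (adjusted p = 0.256, the highest over all alternatives) without ablated replicate 2. In the ablated libraries Foxc1 stood 6.28, 8.13 and 9.99 times above Foxc2 in TPM.

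Foxd2, a FoxD member of the limb, kidney and facial mesenchyme, had 0, 6 and 5 counts in control and 50, 64 and 22 in ablated libraries. The groups were apart, with low control values and ablated replicate 3 the lowest of its group. The log2 fold change was 3.39 (SE 1.33, adjusted p = 0.162) with edgeR, and limma on log2(TPM + 1) gave an adjusted p of 0.0431 on its own scale (0.0431 to 0.368 over all alternatives). Of 7 members listed as responsive to Hedgehog in embryonic mesenchyme (Foxc1, Foxc2, Foxd1, Foxd2, Foxf1, Foxf2 and Foxl1), 3 could be tested, 1 of which passed. Over all tested genes 4.68% were higher by adjusted p. Foxc2 and Foxd2 could be tested only because they were high after ablation, so 1 of 3 is no result about the list. The other 4 stayed under the limit of 10 counts in 3 libraries.

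Foxf2, a gene of pericytes and of gut and palate mesenchyme, had 0, 1 and 1 counts in control and 0, 32 and 20 in ablated libraries. It was thus seen in ablated replicates 2 and 3 and at 0 in ablated replicate 1. Foxl1, which marks mesenchyme beneath the gut epithelium, was at 0 in all controls and at 28, 0 and 4 counts in the ablated libraries, nearly all of them from ablated replicate 1. Foxf1, the partner of Foxf2 in gut and lung mesenchyme, had 5, 2 and 6 counts in control and 3, 4 and 3 in ablated libraries. Its groups overlapped at this low level, while Foxd1, a gene of kidney stroma, was at 0 in all controls and at 1, 0 and 2 counts in the ablated libraries.

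Some of these members have other forkhead genes as near neighbours in the mouse genome. In the RefSeq order of GRCm38.p6, Foxq1, Foxf2 and Foxc1 are neighbours on chromosome 13, and Foxf1, Mthfsd, Foxc2 and Foxl1 follow each other on chromosome 8. The gene after Foxc1, Gmds, an enzyme of fucose synthesis, had a log2 fold change of 0.27 (SE 0.27, adjusted p = 0.652). Mthfsd, between Foxf1 and Foxc2, had one of -0.24 (SE 0.22, adjusted p = 0.605). At the ends of the chromosome 8 run, Irf8, an immune factor before Foxf1, had 335, 343 and 329 counts against 655, 687 and 708 counts (log2 fold change 0.84, SE 0.24, adjusted p = 0.0504). Fbxo31, the second gene after Foxl1, had a log2 fold change of 1.07 (SE 0.42, adjusted p = 0.161). With edgeR none of these 4 neighbours passed. The ablated libraries of Irf8 and Fbxo31 were all higher than their controls, as they were for 14.1% of all tested genes. Cox4i1, the second gene before Foxf1, was lower by sign and did not pass either (log2 fold change -0.56, SE 0.21, adjusted p = 0.147). Foxq1, a gene of hair and stomach epithelium, had a single count in 1 control library.

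Foxs1, a small forkhead gene best known from pericytes and sensory neurons, had 25, 23 and 21 counts in control and 141, 47 and 111 in ablated libraries. In TPM this was 2.1, 2.21 and 1.74 against 12.7, 4.54 and 9.18, with the controls close together and ablated replicate 2 the lowest of its group. The log2 fold change was 1.92 (SE 0.77, adjusted p = 0.176) with edgeR, and limma gave adjusted p of 0.0197 and 0.0291 with pseudocounts of 1 and 0.1 TPM (0.0197 to 0.5 over all alternatives). Foxs1 and Foxc1 therefore peaked in different ablated libraries.

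Some markers of vessel cells also differed between the groups. Of 10 vascular endothelial markers 5 rose and none fell past the threshold (8 higher and 2 lower by sign), with a summed level of 858 to 1063 CPM in the controls and 1205 to 1264 CPM in the ablated libraries. By adjusted p 4.68% of all tested genes were higher and 3.8% lower. Kdr, the most abundant marker of the list, was lower in every ablated library without passing (log2 fold change -0.40, SE 0.14, adjusted p = 0.112). The same held for Erg (log2 fold change -0.15, SE 0.14, adjusted p = 0.622). Of 10 mural cell markers, which pericytes and smooth muscle carry, 4 rose and none fell, and the summed level was 1019 to 1191 CPM against 1552 to 1595 CPM. No marker in either list was at 0 in all libraries, none of the 6 lymphatic markers passed the test, and the part of these cells in the values of Foxc1, Foxc2, Foxf2 and Foxs1 was not tested. Of 8 corneal endothelial markers 3 rose and 2 fell (5 higher and 3 lower by sign), and their sum was 7659 to 8717 CPM in the controls and 4105 to 4867 CPM in the ablated libraries. Most of that sum was Aqp1 alone, which fell from a mean of 7266 CPM in the controls to 3670 CPM in the ablated libraries. In isolated corneal endothelial layers, a different sample, the study found no significant change of Aqp1 by qPCR after Ptch1 deletion. Which cells gave the Aqp1 RNA in these libraries was not tested. Of 7 tested epithelial markers 1 rose and 3 fell, and their list summed to 43.9 to 72.1 CPM against 3.7 to 10.6 CPM. Of 6 markers of the limbus and drainage angle 2 rose and 1 fell. In bulk samples more cells of a type and more RNA per cell cannot be told apart.

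Foxm1, which drives the genes of G2 phase and mitosis, had 0, 4 and 24 counts in control and 44, 65 and 53 in ablated libraries. All ablated libraries were higher, while the controls spread from none to 24. The log2 fold change was 2.40 (SE 1.32, adjusted p = 0.345), and it was 4.38 (adjusted p = 0.145) without control replicate 3, with adjusted p of 0.102 to 0.553 over all alternatives. Of 16 genes known as Foxm1 targets 14 could be tested, and 12 were higher by sign. The median log2 fold change of the 14 was 1.35, against 0.0046 over all genes. Ccnb1, Aurkb and Kif20a stayed under the count limit in every control library. Ccnb2 (0, 0 and 38 control counts), Cenpf (7, 0 and 16) and Birc5 (4, 9 and 25) met the limit in a single control library each. All of these genes were given a fold only because they were high after ablation, so their sign is no result. Plk1 and Nek2 also met the limit in a single control library each and were lower by sign. The limit thus partly set the count by sign and the median over the targets, which are descriptions only.

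With edgeR 1 of these targets was past the threshold higher and 0 lower, namely Ccnb1, cyclin B1. By adjusted p 4.68% of all tested genes were higher and 3.8% lower. Ccnb1 could be tested only because it was high after ablation, so its pass is no result about the list. It had 0, 2 and 2 counts in control and 21, 217 and 21 in ablated libraries (log2 fold change 5.73, SE 1.47, adjusted p = 0.0317). The call was lost without any 1 of control replicates 1, 2 and 3 (adjusted p = 0.0618, 0.0839 and 0.0801) and without ablated replicate 2, which held most of the counts (log2 fold change 3.67, adjusted p = 0.294, the highest over all alternatives), and with limma on log2(TPM + 1) (0.0783). Top2a, a topoisomerase of dividing cells, had a log2 fold change of 2.89 (adjusted p = 0.0527) and Aurkb, a mitotic kinase, one of 4.63 (adjusted p = 0.0864). Both were higher in all 3 ablated libraries and missed the threshold with edgeR. Top2a passed with DESeq2 (adjusted p = 0.00423), both limma fits (0.0325 and 0.0485), library totals only (0.0355) and no filter (0.0458), with 0.239 the highest over all alternatives. Aurkb passed with DESeq2 (0.0342) and both limma fits (0.00964 and 0.0158), with 0.251 the highest.

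Foxj1, the master gene of motile cilia, had 8, 12 and 7 counts in control and 28, 39 and 40 in ablated libraries. The groups were apart at a level of 0.27 to 0.53 TPM in the controls and 1.12 to 1.73 TPM in the ablated libraries. The log2 fold change was 1.76 (SE 1.04, adjusted p = 0.385). Of 15 genes of the motile cilium in the table only 5 could be tested, and with edgeR none passed in either direction. Tekt2, a protein of the ciliary microtubules, came nearest and was lower by sign (log2 fold change -1.19, SE 0.46, adjusted p = 0.158).

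Foxo3 had 1252, 890 and 952 counts in control and 961, 1014 and 913 in ablated libraries. The groups overlapped, at 13 to 17.2 TPM in the controls and 12.4 to 16 TPM in the ablated libraries (log2 fold change -0.27, SE 0.20, adjusted p = 0.512). Foxo1 had 813, 500 and 417 counts in control and 776, 972 and 453 in ablated libraries. Its groups overlapped over nearly their whole range (log2 fold change 0.18, SE 0.34, adjusted p = 0.839). Foxo4, on the X chromosome, was lower in level, at 0.22 to 1.16 TPM in the controls and 1 to 2.37 TPM in the ablated libraries, and its groups overlapped (log2 fold change 1.18, SE 0.98, adjusted p = 0.568).

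FoxO activity is mostly set by phosphorylation, which these data do not measure, so the transcripts of the kinase axis and of known targets are given instead. Of 16 genes of the insulin and Akt axis, Insr, the insulin receptor, rose (log2 fold change 0.99, SE 0.18, adjusted p = 0.00381) and Irs2, its adaptor, fell (log2 fold change -0.65, SE 0.15, adjusted p = 0.0144). Both passed by adjusted p alone, by which 4.68% of all tested genes were higher and 3.8% lower. The other 14 did not pass, among them Sgk1, a kinase that phosphorylates Foxo3 (log2 fold change 0.61, adjusted p = 0.0542). Irs2 no longer passed the adjusted p without control replicate 2 (adjusted p = 0.0562) or ablated replicate 3 (0.0584, and 0.000173 to 0.138 over all alternatives). Sgk1 passed in 9 of 17 alternatives, among them DESeq2 (adjusted p = 0.00578), both limma fits (0.00607 and 0.00943) and the fits without control replicate 3 (0.0306) or ablated replicate 2 (0.0499), with 0.218 the highest.

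Of 24 tested FoxO targets 3 rose, 1 fell and 20 did not pass, with a median log2 fold change of 0.20. By adjusted p 4.68% of all tested genes were higher and 3.8% lower, and their median log2 fold change was 0.0046. Fbxo32, the ubiquitin ligase atrogin-1, had 423, 634 and 735 counts in control and 2764, 3497 and 3039 in ablated libraries (log2 fold change 2.19, SE 0.23, adjusted p = 6.59e-05). Cdkn1a, the cell cycle inhibitor p21, had 3368, 2951 and 2826 counts against 9552, 8431 and 8605 counts (log2 fold change 1.36, SE 0.15, adjusted p = 8.11e-05). Both were far apart between the groups, and the other passing targets were Insr and Irs2, which are also on the kinase list.

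Foxp1, a repressor with roles in lung, heart and blood, had 1899, 1303 and 1931 counts in control and 1832, 2738 and 2054 in ablated libraries. Its groups overlapped in CPM and lay just apart in TPM, at 15.1 to 22.3 against 22.8 to 38, with ablated replicate 2 the highest (log2 fold change 0.21, SE 0.19, adjusted p = 0.626). Foxp4, its relative in lung and gut, had 217, 187 and 174 counts in control and 396, 301 and 286 in ablated libraries. Here the groups were apart, though the difference did not pass (log2 fold change 0.59, SE 0.33, adjusted p = 0.356). Foxp2, known for its part in speech circuits, stood at 2.37 to 4.43 TPM in the controls and 3.47 to 6.59 TPM in the ablated libraries and overlapped. Of 13 corepressor genes that FoxP and other forkhead factors work with, none passed the test with edgeR, and Tle4 came nearest (log2 fold change -0.96, SE 0.30, adjusted p = 0.0736). Tle4 passed with DESeq2 (adjusted p = 0.0397) and with the GC and length correction (0.0461), with 0.226 the highest over all alternatives.

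Foxn3, a repressor first linked to cell cycle checkpoints, was the most abundant member in all 6 libraries. It had 3137, 2524 and 2587 counts in control and 2510, 2955 and 2125 in ablated libraries, or 61, 61.2 and 51.8 TPM against 57.5, 57.8 and 37.7 TPM. The groups overlapped, with ablated replicate 3 the lowest (log2 fold change -0.29, SE 0.18, adjusted p = 0.403). Foxn2, its relative, had 538, 435 and 795 counts against 541, 733 and 1213 counts. It too overlapped in CPM and lay just apart in TPM, at 10.4 to 14.3 against 14.6 to 21.8 (log2 fold change 0.32, SE 0.30, adjusted p = 0.614).

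Foxj3, an activator known from muscle, had 1374, 601 and 787 counts in control and 816, 1187 and 1060 in ablated libraries. The controls spread more widely than the ablated libraries and enclosed them (log2 fold change -0.014, SE 0.28, adjusted p = 0.988). Foxj2 overlapped as well, at 3.42 to 10.8 TPM against 7.77 to 9.49 TPM. Foxk1 and Foxk2, which bind many of the same genes of metabolism and autophagy, differed between libraries more than between groups. Foxk1 had 317, 118 and 302 counts in control and 123, 550 and 165 in ablated libraries (log2 fold change 0.052, SE 0.55), and -0.92 was obtained without ablated replicate 2. Foxk2 was low where Foxk1 was high in that library, so the TPM ratio of Foxk1 to Foxk2 was 2.47 there against 0.207 to 0.615 in the other 5 libraries.

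**Figure D2:**
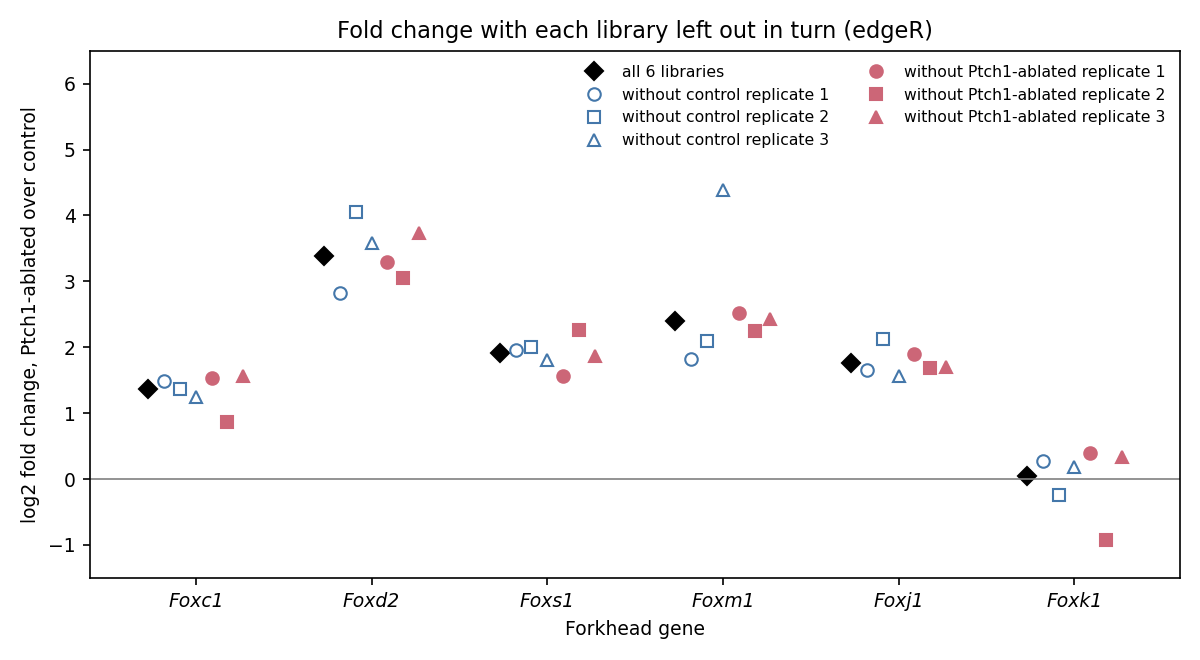
Log2 fold change of 6 forkhead genes with all 6 libraries (diamonds) and with each library left out in turn (open blue, a control library left out; filled red, an ablated library left out). Foxc1, Foxd2, Foxs1, Foxm1 and Foxj1 stay above 0 in all of these fits, Foxc1 drops to 0.87 without ablated replicate 2, and Foxk1 crosses 0. Foxd2, Foxm1 and Foxj1 were given a fold only because they were high after ablation, so their sign is no result.

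Levels between members were compared in TPM. Foxn3 led at 58 ± 5.36 TPM in the controls (mean ± SD, n = 3), and its range did not touch that of Foxp1 at 19.9 ± 4.15 TPM. From Foxp1 through Foxj3 (17.5), Foxo3 (14.8), Foxn2 (11.8), Foxo1 (10.2), Foxj2 (7.92), Foxk2 (6.09) and Foxp4 (5.08) neighbours in the order overlapped in the controls. Foxp4 lay above Foxc1 (3.72), and along the run Foxc1, Foxp2 (3.68), Foxk1 (3.37) and Foxs1 (2.02) each overlapped with the next. Foxs1 lay above Foxo4 (0.683), Foxj1 (0.37), Foxm1 (0.207), Foxd2 (0.15) and Foxc2 (0), which again overlapped with their neighbours. Of the 12 members at 3 TPM or more in the controls, Foxc1 had the largest difference, and the others stayed within 0.59 on the log2 scale in either direction. Of the 6 members below 3 TPM, Foxc2, Foxd2, Foxm1 and Foxj1 had to be high after ablation to be given a fold, so their shared sign is no result. Foxo4, also below 3 TPM, differed 5.08-fold in CPM between its own control libraries.

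**Figure D3:**
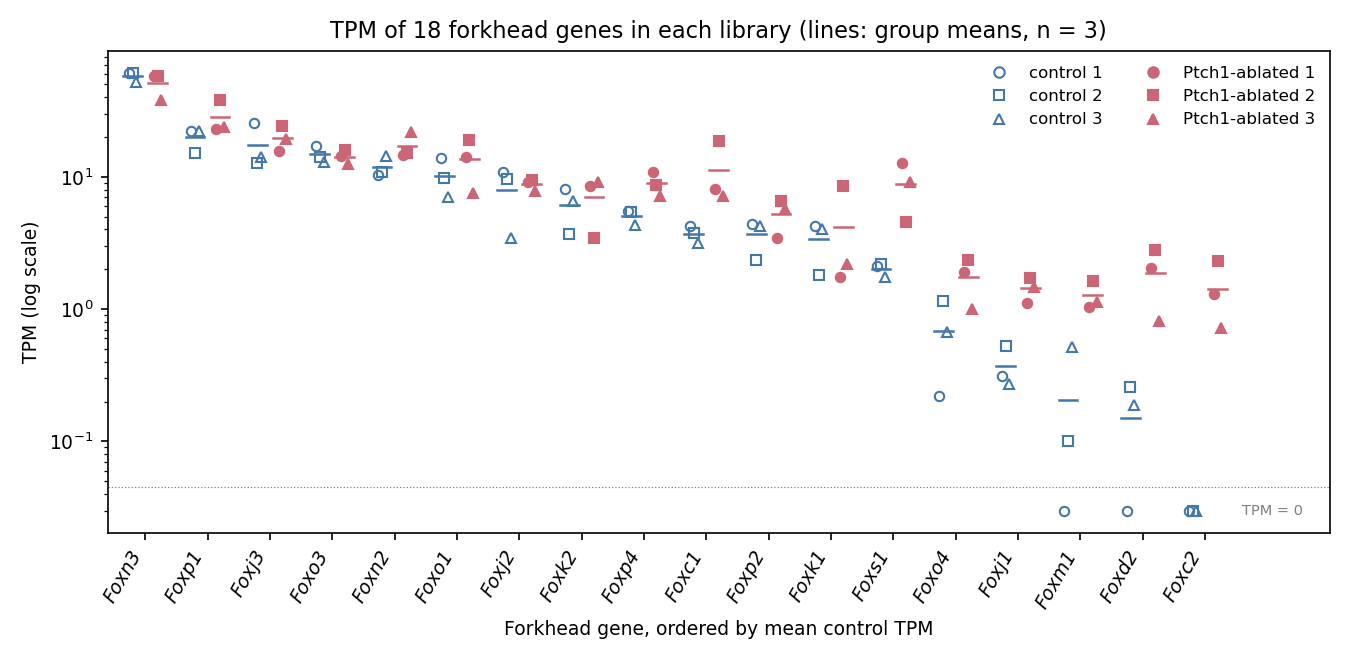
TPM on a log scale of the 18 forkhead genes with a fold, in each of 3 control (open blue) and 3 ablated (filled red) libraries, with lines at the group means and libraries at 0 drawn beneath the dotted line. From Foxn3 to Foxk1 most groups overlap, while Foxs1, Foxj1, Foxm1, Foxd2 and Foxc2 lie at 2.02 TPM or less on average in the controls with every ablated library above them. Foxo4, at 0.683 TPM on average in the controls, overlaps. Foxj1, Foxm1, Foxd2 and Foxc2 were given a fold only because they were high after ablation, so their place above the controls is no result.

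Summed over the 34 members, the family held 192, 155 and 153 TPM in the controls and 203, 245 and 179 TPM in the ablated libraries, so the groups overlapped. The FoxN subfamily made up 42.3% ± 4.68 of this in the controls and 32.8% ± 2.9 in the ablated libraries (mean ± SD, n = 3). FoxC made up 2.23% ± 0.167 and 5.86% ± 2.32, and FoxS, which is Foxs1 alone, 1.22% ± 0.181 and 4.41% ± 2.28. The FoxO share was 15.3% ± 1.54 and 14.0% ± 1.95, a difference within the spread between libraries.

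**Figure D4:**
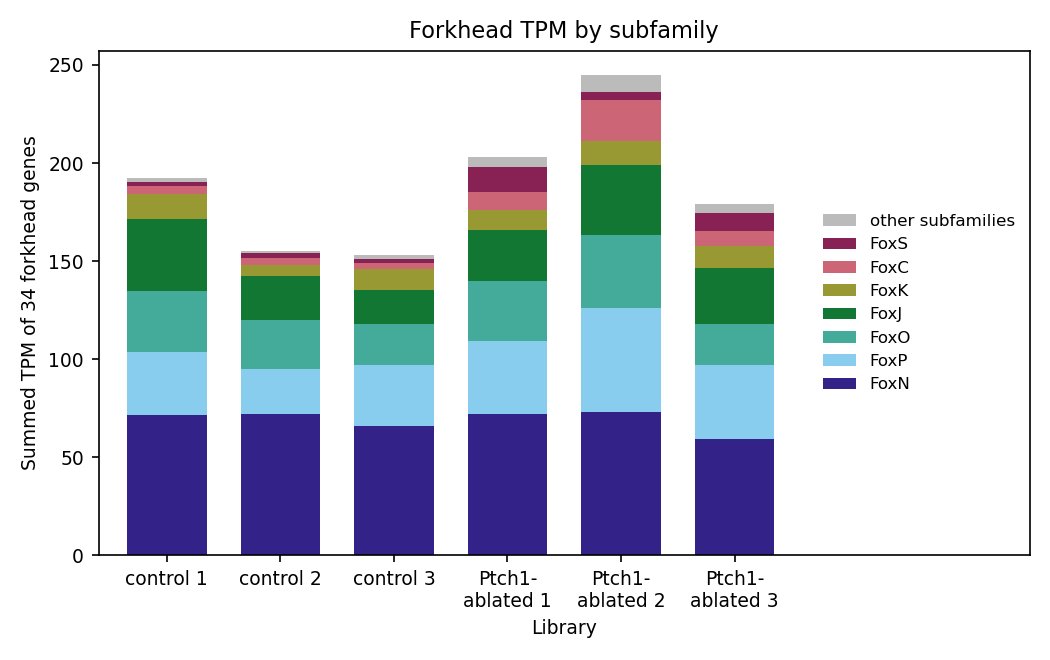
Summed TPM of the 34 forkhead genes in each library, stacked by subfamily; bars start at 0. FoxN holds 59.5 to 73 TPM in every library, while FoxC and FoxS together are thin in the controls and thicker in the ablated libraries.

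The 16 members without a fold were close to the limit of detection. 10 of them had fewer than 10 counts in all 6 libraries, 5 reached 10 counts in 1 library and Foxf2 in 2, and the highest value was 39 counts or 1.89 TPM. All controls were at 0 for 5 of them and all ablated libraries for 3.

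Foxd3, a neural crest and glial gene, had 5, 7 and 2 counts in control and 5, 39 and 9 in ablated libraries. Its high value came from ablated replicate 2 alone. Of 7 Schwann cell markers 2 rose and none fell by adjusted p, against 4.68% and 3.8% of all tested genes. Those markers summed to 169 to 178 CPM in the controls and 212 to 225 CPM in the ablated libraries. The part of Schwann cells in the Foxd3 counts was not tested. Foxd4, a close relative, had 31, 2 and 0 counts against 0, 0 and 3 counts, nearly all from control replicate 1. Foxp3, the factor of regulatory T cells, had 0, 0 and 2 counts against 6, 0 and 27 counts.

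The T cell genes Cd3e and Cd3g overlapped between the groups. Of 9 tested leukocyte markers 1 rose and none fell by adjusted p, against 4.68% and 3.8% of all tested genes. Foxi1, a gene of ion-transporting epithelial cells, was seen only in control replicate 3 with 18 counts. Foxe3, a lens gene, had 0, 1 and 0 counts against 7, 0 and 6 counts, while the summed level of the 5 lens genes in the table was 118 to 160 CPM in the controls and 55.5 to 65.8 CPM in the ablated libraries. Nearly all of that was Cryab, a crystallin made in many tissues, which fell (log2 fold change -1.25, SE 0.17, adjusted p = 0.00066), and the lens-restricted crystallin Cryaa was at 0 in every control. Foxa3, Foxi3, Foxl2, Foxn1, Foxn4, Foxq1 and Foxr1 stayed at 5 counts or fewer in every library, so a difference between the groups was not detectable at this depth for them.

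**Figure D5:**
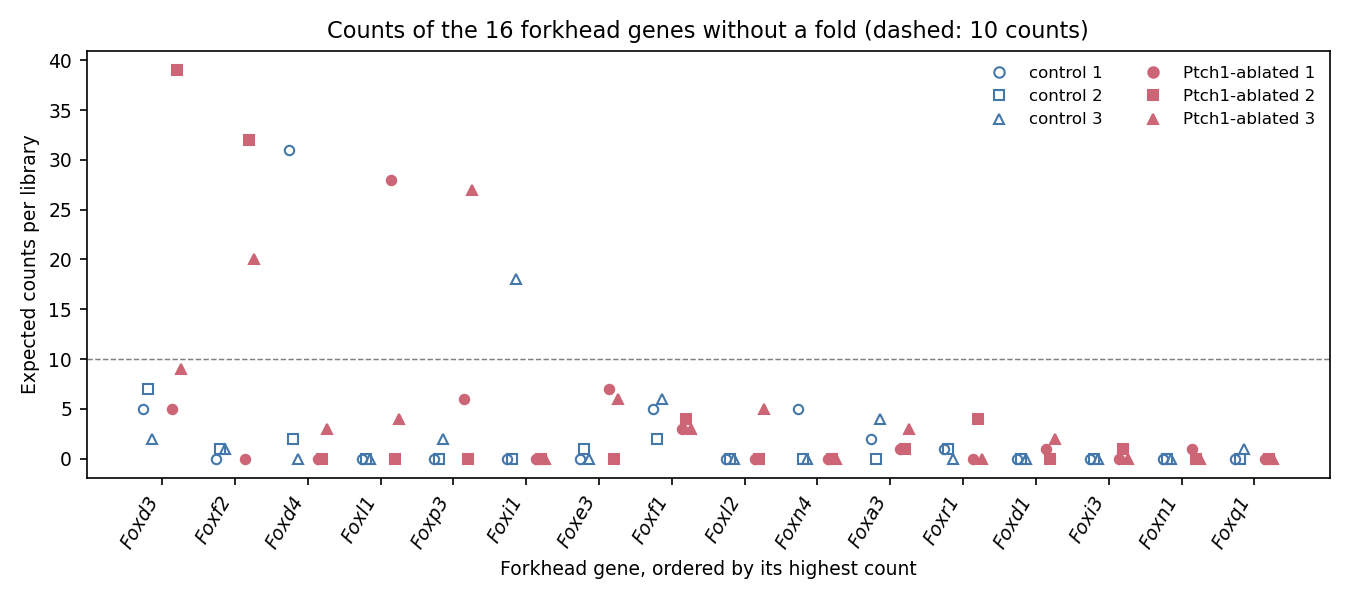
Expected counts in each library for the 16 forkhead genes without a fold, with a dashed line at 10 counts; open blue symbols are controls and filled red symbols ablated libraries. Only Foxf2 exceeds 10 counts in more than 1 library, and Foxd3, Foxd4, Foxl1, Foxp3 and Foxi1 each owe their height to a single library.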

How the data were processed

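RNA from sorted keratocytes was measured in 6 libraries, 3 per group, grouped by sample title. Per the labels a TruSeq kit was used, whereas the study's methods describe ribosomal RNA depletion and a BGISEQ platform. Per the submitters' processing notes reads were handled with Bowtie2 2.2.5 and RSEM 1.2.12 on mm9; annotation release and strandedness are not given in the sources used here. The deposited table holds RSEM expected counts (18.6% not whole), which were rounded here, and TPM scaled by the authors by length and library. Counts were tested with edgeR 4.0.16 (quasi-likelihood, TMM scaling, filterByExpr, prior count 0.125), with Benjamini-Hochberg adjustment over 13888 genes. SE was the absolute log2 fold change divided by the root of F. A call needed an adjusted p no larger than 0.05 together with a fold of 2 or more. In the lists of targets, partner genes and cell markers a gene rose, fell or passed by adjusted p alone. Alternatives used DESeq2 1.42.0 and limma 3.58.1 on log2(TPM + 1) and log2(TPM + 0.1), which understate the change of low genes. On simulated data for this comparison (13888 genes), 66 of 97 changes of 2 and 88 of 103 changes of 3 on the log2 scale were recovered. Named members are those past an adjusted p of 0.05, at an unadjusted p under 0.05, the 6 highest in TPM and 12 of known developmental or signaling role; other members were added where their counts were informative, after their values were seen. Members and gene lists were chosen with earlier results of these data known. The study gives 3 biological replicates per group, and the labels do not tie libraries to animals, so p-values measure the spread between these libraries.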

Additional observations from a re-analysis of the deposited data

How the results depend on the processing

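The number of members called higher was 1; it was 2 with DESeq2, 2 with library totals only, 2 with no filter on low counts, 3 with limma at a pseudocount of 1 TPM, 2 with limma at 0.1 TPM, and 0 to 1 with each library left out in turn. It was 0 with both libraries that lie apart on the second component left out, an alternative chosen after seeing the data (Foxc2 adjusted p = 0.0634). Members called lower stayed at 0 throughout. The median log2 fold change of the members was 0.31; it was 0.48 with library totals only, 0.48 and 0.52 with the limma fits, and 0.18 to 0.47 with each library left out. Those 3 settings also moved the median of all genes, to 0.17, 0.19 and 0.22, and relative to it the members stood at 0.31, 0.29 and 0.29. Genes called across the table numbered 763, and 611 to 1051 under the alternatives. With the replicate block the count of members called was 0 (Foxc2 log2 fold change 8.02, adjusted p = 0.101). Libraries with the same number correlated at -0.046, -0.049 and 0.039 in their deviations from the group means, so the numbers are not taken as paired.

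Signs turned in the members Foxj2, Foxj3, Foxk1, Foxk2, Foxo1 and Foxn2, none of which passed the test in any setting. Foxj2 (main value -0.072) was 0.085 with library totals only, 0.086 with the replicate block, 0.21 with both libraries left out, 0.25 and 0.31 with limma, and -0.44 to 0.23 leaving out single libraries. Foxj3 (-0.014) was 0.15, 0.046, 0.23, 0.21 and 0.22 in the same order, and -0.19 to 0.37 leaving out single libraries. Foxk1 (0.052) was -0.26 with the replicate block, -0.22 with the GC and length correction, -0.71 with both libraries left out and -0.92 to 0.40 leaving out single libraries. Foxk2 (0.017) was -0.059 with the replicate block, -0.11 with the GC and length correction, -0.03 with upper quartile scaling and -0.25 to 0.37 leaving out single libraries. Foxo1 (0.18) was -0.024 with the GC and length correction and -0.084 to 0.47 leaving out single libraries, and Foxn2 (0.32) was -0.025 to 0.55. The causes were not tested. Of 306 values of the 18 members under 17 alternatives, 264 kept direction and side of the threshold, 7 lost the call, 6 gained it and 29 changed sign. DESeq2 left 12 adjusted p-values undefined. At 3 libraries per group and these counts, differences of the low members could not be measured closely.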
